A study of Drosophila melanogaster with 2 samples.

Results

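Genes for translation initiation factors (eIF) and elongation factors (eEF) were examined for binding of CG9215, a fly protein, in whole embryos of Drosophila melanogaster. The members were all protein-coding genes of the Ensembl BDGP6 annotation with a symbol starting eIF or eEF. They numbered 52 of 13968 protein-coding genes, with 44 eIF and 8 eEF symbols. The data are chromatin immunoprecipitation and sequencing (ChIP-seq) from transgenic flies whose CG9215 protein is fused to enhanced green fluorescent protein (eGFP), with an antibody to GFP, in mixed-stage embryos collected over 0-24 hours. There is 1 group of 2 biological replicates, taken from different biosamples, so genes were compared with other genes and replicate 1 with replicate 2. The labels point to a control library, which was not analysed here. Whole embryos mix all cell types, and a peak list holds no marker by which the tissue could be checked. A peak shows where the tagged protein was recovered with DNA and does not show whether a gene was expressed.

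Translation starts when initiation factors bring the small ribosomal subunit, the initiator tRNA and the capped mRNA together. eIF2 carries the initiator tRNA and eIF2B recharges it, eIF3 is the large scaffold on the small subunit, and eIF4E, eIF4G and eIF4A bind the cap, bridge to the ribosome and unwind the mRNA. eIF1, eIF1A, eIF5 and eIF5B govern start codon selection and the joining of the subunits. During elongation eEF1 delivers aminoacyl-tRNAs and eEF2 moves the ribosome along. Early fly embryos rely on stored maternal mRNA, whose use is set largely at the level of translation.

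Of the 52 genes, 9 had a summit, the point of highest signal in a peak, within 500 bp of an annotated start site in the authors' conservative list, which was called across both replicates. Those genes were eIF1, eIF1A, eIF5B, eIF3c, eIF3h, eIF3m, eIF6, eEF1alpha1 and eEF1gamma. The DNA under the summits is shown for 4 of them and for eIF4EHP, whose peak passed in none of the thresholded lists, since these windows show the spread in base content described below. Each is a window of 101 bases centred on the summit, read 5' to 3' on the strand of the gene from the RefSeq Release 6 genome (dm6). The exceptions are eEF1gamma and eIF1A, whose windows were cut to 91 bases and end just before the start of the gene. Capitals mark matches to the motifs searched. The eEF1gamma window is chr3R:29220081-29220171 on the plus strand, the eIF1A window chr3R:18274574-18274664 on the plus strand, the eIF1 window chr3L:3223055-3223155 on the plus strand, the eIF3h window chr2L:5052475-5052575 on the minus strand and the eIF4EHP window chr3R:24109142-24109242 on the minus strand.
eEF1gamma: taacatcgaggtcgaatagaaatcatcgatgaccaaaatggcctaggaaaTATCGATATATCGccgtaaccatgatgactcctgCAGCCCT
eIF1A: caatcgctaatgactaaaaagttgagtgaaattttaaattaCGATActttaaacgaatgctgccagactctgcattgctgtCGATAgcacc
eIF1: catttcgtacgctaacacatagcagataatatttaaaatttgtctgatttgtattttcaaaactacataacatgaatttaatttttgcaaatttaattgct
eIF3h: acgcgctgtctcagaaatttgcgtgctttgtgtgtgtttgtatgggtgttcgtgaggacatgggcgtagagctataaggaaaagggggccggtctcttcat
eIF4EHP: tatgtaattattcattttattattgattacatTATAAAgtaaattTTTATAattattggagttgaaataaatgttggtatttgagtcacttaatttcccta
The eEF1gamma window holds the DNA replication-related element (DRE, letters TATCGATA), which overlaps the shorter CGATA core, and a match to the motif 7 core (CAGCNCT) at its 3' end. The eIF1A window holds the CGATA core at 2 places on the plus strand, and the eIF1 and eIF3h windows hold none of the motifs searched. The eIF4EHP window holds the TATA box letters TATAAA on both strands.

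The authors deposited 8 peak lists on dm6, with coordinates given here from 1. Thresholded lists hold peaks with an irreproducible discovery rate (IDR, an estimate of how many calls fail to repeat) of at most 0.01, and the ranked lists hold weaker peaks as well. The conservative list holds 3718 peaks, the second series-level thresholded list, called the other thresholded list below, 4098, replicate 1 thresholded 3442 and replicate 2 thresholded 2624, against 122959 in the both-replicate ranked list. Peak signal is the authors' own value, with a median of 146 in the conservative list, 85.4 in replicate 1 thresholded and 92.9 in replicate 2 thresholded. Signals rank peaks within a list only, and without read counts in the files the sequencing depth is unknown.

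The share of members with a promoter summit was 9 of 52, or 17.3% (95% Wilson interval 9.38% to 29.7%), and the share of all protein-coding genes in the conservative list was also 17.3%. The count is therefore at the background. In the other thresholded list 9 members (17.3%) had a summit, against 18.1% of protein-coding genes. Replicate 1 thresholded gave 11 members (21.2%) against 16.1%, and replicate 2 thresholded gave 11 members (21.2%) against 14.5%, where both backgrounds lie inside the Wilson interval of the members (12.2% to 34%). The 9 genes of the conservative list had a summit in every thresholded list, which is 17.3% of members, against 12.5% of protein-coding genes. Of the 2419 protein-coding genes with a conservative summit, 1752 had one in every thresholded list. In any thresholded list there were 13 members (25%), against 20.1% of protein-coding genes. Cytosolic ribosomal protein genes, which encode the other large part of the translation machinery, had a conservative summit in 43 of 93 cases (46.2%), above the upper end of the members' interval.

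The ranked lists reached more members. The both-replicate ranked list had a summit at 29 members (55.8%) against 65.0% of protein-coding genes, replicate 1 ranked at 26 (50%) against 63.0%, and replicate 2 ranked at 33 (63.5%) against 65.5%. In no list at all was there a summit at 14 members (26.9%), against 23.2% of protein-coding genes.

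**Figure D1:**
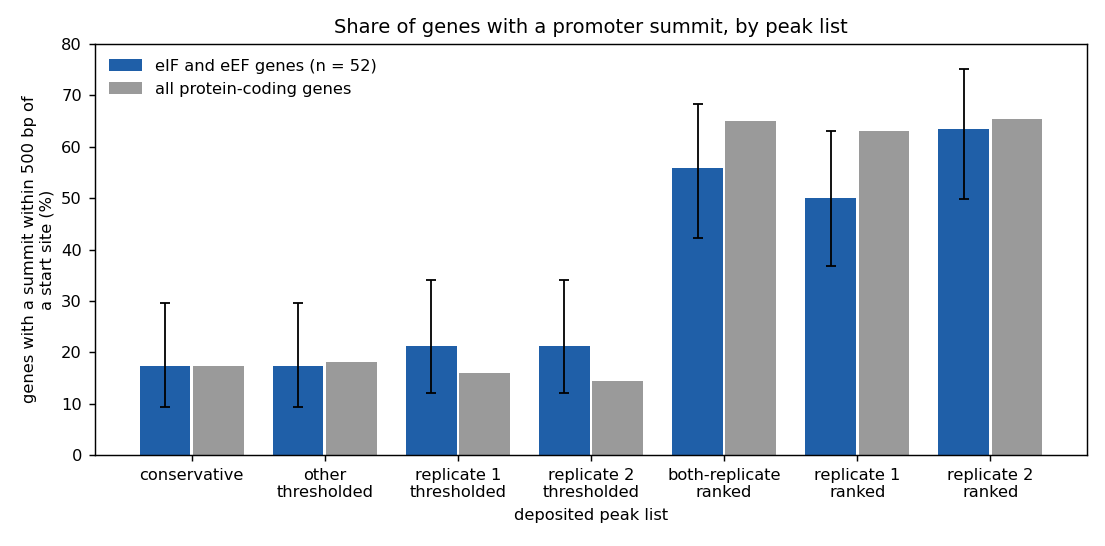
Share of genes, in percent, with a summit within 500 bp of a start site in 7 deposited lists, with the 52 eIF and eEF genes (blue, left) beside all 13968 protein-coding genes (grey, right); error bars are 95% Wilson intervals over members. The 2 bars are equal at 17.3% in the conservative list, and in replicate 1 ranked the members stand at 50% beside 63.0%.

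Among the 9 members the conservative signal ran from 129 to 2019 with a median of 244, against a median of 194 for the 2419 protein-coding genes with such a summit. The members' median rank was 27% of the way down the list, against 35.6%. Only eIF6 and eIF3c stood in the first 10% of the list, at ranks 26 and 285 of 3718.

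The strongest peak was at eIF6, which keeps the large ribosomal subunit from joining the small one too early. Its peak, chr2R:23850220-23850602, had a conservative signal of 2019. It had a signal of 1197 at rank 23 in replicate 1 thresholded and 830 at rank 32 in replicate 2 thresholded, so it was near the top in both. The summit lay at -98 bp from the eIF6 start site (negative is upstream), and at -105 bp in replicate 1 and -98 bp in replicate 2. That point is also in an annotated exon, inside the spans of both ytr and asRNA:CR45928. The latter is a non-coding RNA whose own start site was nearer, at 69 bp. The peak cannot be assigned to one of these genes by position alone. Of the other members in the mixed class of initiation factors, eIF2D, which places tRNA on the ribosome without eIF2, passed only in replicate 1, and eIF2A had no summit in any list.

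Of the 4 genes of start codon selection 3 were in the conservative list, a class too small to be read against the 17.3% of protein-coding genes. eIF5B, which joins the ribosomal subunits, had a conservative signal of 377 at rank 541, with 198 in replicate 1 and 166 in replicate 2. Its peak, chr3L:3460595-3460880, lay inside the 5' UTR of the longer transcript and at -141 bp from a second, inner start site. eIF1, which keeps the scanning ribosome open until a start codon is met, had a peak of 315 at rank 709 at chr3L:3222966-3223139, with 132 in replicate 1 and 169 in replicate 2. That summit lay at -236 bp from eIF1 and 145 bp from RpL28, a gene for a protein of the large ribosomal subunit that starts 381 bp away on the opposite strand. A weaker eIF1 peak of 149 at rank 1804 lay at -37 bp, nearer to eIF1 than to RpL28, and had a signal of 61 in replicate 1, while replicate 2 thresholded held a single summit at eIF1.

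eIF1A, the partner of eIF1 in scanning, had the lowest conservative signal of the 9, 129 at rank 2137, with 52.3 in replicate 1 and 68.4 in replicate 2. The peak, chr3R:18274416-18274831, lay between eIF1A and Vps39, which start 219 bp apart on opposite strands. Its summit was at -41 bp from eIF1A over both replicates and at -42 bp in replicate 2, but at -131 bp in replicate 1, where Vps39 was the nearer gene at 88 bp. The remaining gene of the class, eIF5, which makes eIF2 hydrolyse its GTP, had no summit in any list.

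eIF3 had 3 of 16 members in the conservative list, eIF3c, eIF3m and eIF3h. The share among all protein-coding genes was 17.3%. eIF3c, a core subunit, had a conservative signal of 563 at rank 285, with 307 in replicate 1 and 254 in replicate 2. Its peak, chr2R:17665485-17665801, had its summit at -33 bp over both replicates, at -53 bp in replicate 1 and at 4 bp in replicate 2, and no other gene started within 500 bp. eIF3m had 179 at rank 1457 in the conservative list, with 69.4 in replicate 1 and 105 in replicate 2. Its summit at chr2R:14164613-14165028 lay at 4 bp, on the start site itself, at 13 bp in replicate 1 and 6 bp in replicate 2, with CG8323 starting 230 bp from it.

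eIF3h had 168 at rank 1580, with 106 in replicate 1 and 87.9 in replicate 2. It was the member with the largest disagreement in place among the 9, with its summit in an intron at 255 bp from an inner start site over both replicates and at 270 bp in replicate 1, but at 64 bp in replicate 2. The other thresholded list held a second eIF3h peak of 136 at 50 bp, beside the one at 255 bp. senju, on the opposite strand, started 318 bp from the conservative summit at chr2L:5052443-5052547. eIF3e passed in replicate 1 alone. Of the other eIF3 genes, eIF3a, eIF3f1, eIF3g2, eIF3i and eIF3j had no summit in any of the 8 lists.

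In the eEF1 complex 2 of 5 members were in the conservative list, again too few to be read against the 17.3% of protein-coding genes. eEF1gamma, a structural subunit of the exchange complex, had 244 at rank 1005, with 88.7 in replicate 1 and 158 in replicate 2. Its summit at chr3R:29219923-29220338 lay at -41 bp over both replicates, at -39 bp in replicate 1 and at -64 bp in replicate 2, with no other gene within 500 bp. eEF1alpha1, the main carrier of aminoacyl-tRNA, had 166 at rank 1599, with 83 in replicate 1 and 92.1 in replicate 2. Its peak at chr2R:11891809-11892224 was intronic, at -105 bp from an inner start site, one of 4 annotated for the gene. A second peak there, at 101 bp, had a signal of 2.34, rank 3714 of 3718. eEF1alpha2 had a summit in ranked lists only, eEF1beta, which reloads eEF1alpha with GTP, likewise, and eEF1delta had none in any list.

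No member of the other classes was in the conservative list. These were the 3 eIF2 genes, the 5 eIF2B genes, the 4 genes for eIF4A, eIF4B and eIF4H, the 7 eIF4E genes, the 2 eIF4G genes, and eEF2, eEF5 and eEFSec. Each of these classes is too small to be read against the 17.3% of protein-coding genes with a conservative summit. In these classes eIF2alpha, eIF4E1, eIF4E6, eIF4G1, eIF4B and eIF4H1 had no summit in any of the 8 lists. They are among the 14 members (26.9%) in no list, against 23.2% of protein-coding genes. eIF4G1 is on chromosome 4, where only 1 of 80 protein-coding genes (1.25%) had a conservative summit.

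**Figure D2:**
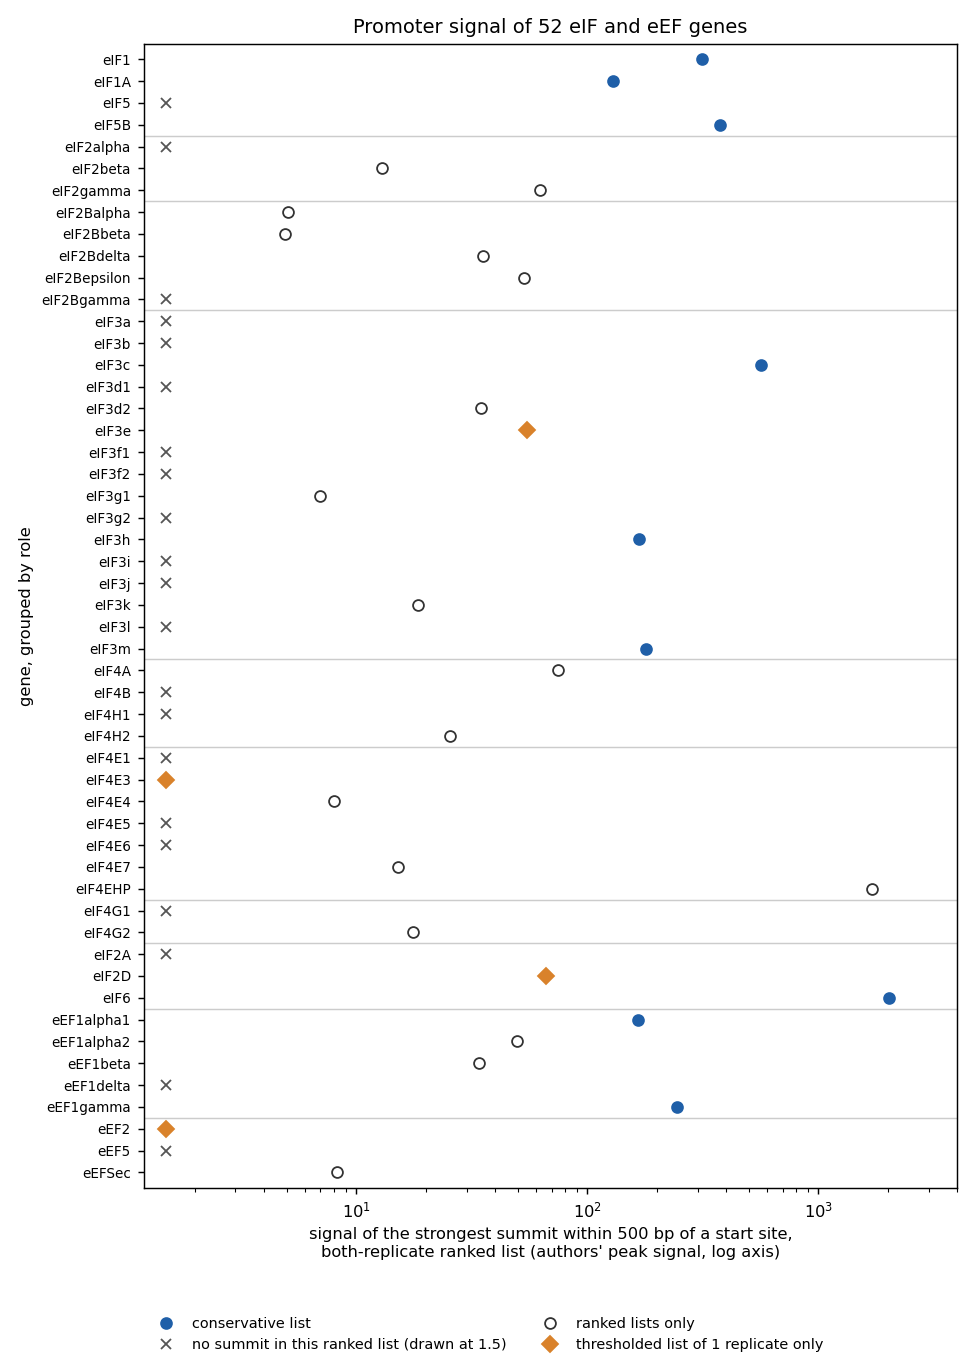
Signal of the strongest promoter summit of each of the 52 genes in the both-replicate ranked list (x, the authors' value, log axis), ordered by role (y, grey lines between roles); filled circles are in the conservative list, diamonds in a thresholded list of 1 replicate only, open circles in ranked lists only, and crosses, and diamonds at 1.5, have no summit in this ranked list. eIF6 at 2019 and eIF4EHP at 1699 lie far to the right of the rest, of which eIF3c at 563 is the highest.

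Some members passed in a single replicate. In replicate 1 thresholded, eIF2D had 56.4 at rank 2679 of 3442 and eIF3e 37.5 at rank 3297. In the replicate 2 ranked list eIF2D had 19 and eIF3e 24.8, both short of the threshold. Those summits lay elsewhere, for eIF2D at -7 bp against -99 bp in replicate 1, and for eIF3e at 5 bp against -157 bp. In replicate 2 thresholded, eEF2, the translocase, had 53.4 at rank 2332 of 2624 with its summit at -13 bp, and no summit of any kind in replicate 1 ranked. eIF4E3, a cap-binding protein known from the male germline, had 5.34 at rank 2585, at -490 bp. All 4 stood in the lower part of the list in which they passed.

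The replicates were compared over 3637 regions with a peak in each. The ratio of replicate 1 to replicate 2 signal had a median of 1.08, and on the log2 scale it ran from -0.62 at the 5th percentile to 0.90 at the 95th. eEF1gamma was outside that range, at -0.84, with the higher signal in replicate 2. eIF3m, at -0.60, and eIF6, at 0.53, were inside it, as were the other 6 members, between -0.39 and 0.28. For eIF3h, at 0.27, the ratio sets a summit at 270 bp in replicate 1 beside one at 64 bp in replicate 2. With a single library per replicate there is no test of such a difference.

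**Figure D3:**
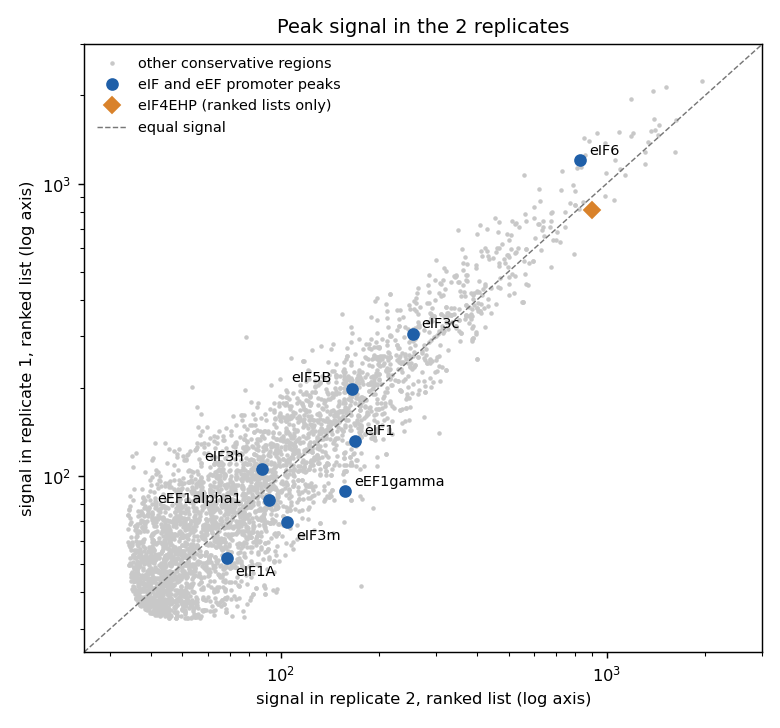
Signal in replicate 1 (y) against replicate 2 (x), both on log axes in the authors' units, for conservative regions with a peak in each replicate; members' promoter peaks are blue, eIF4EHP is the orange diamond, and the dashed line marks equal signal. eEF1gamma, at 88.7 and 158, lies farthest below the line among the members, and eIF6, at 1197 and 830, lies highest.

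eIF4EHP, a relative of eIF4E that binds the cap and represses maternal mRNAs such as caudal in the early embryo, was strong in the ranked lists and missing from the thresholded ones. It had the second strongest promoter signal of the family in the both-replicate ranked list, 1699 at rank 43 of 122959, with 813 at rank 49 in replicate 1 ranked and 902 at rank 29 in replicate 2 ranked. The summit was at -232 bp, -234 bp and -232 bp in those lists. The -log10 IDR was 5 in all of them, where at least 2 was needed, and yet the peak, chr3R:24108967-24109407, is in none of the 4 thresholded lists. Of 3903 both-replicate ranked peaks at the IDR threshold, 185 are absent from the conservative list, and the eIF4EHP peak was the 6th of these by signal. It was the only one of 10 members at that threshold to be lost. Among all 13968 protein-coding genes, 2469 had a promoter peak at the threshold, and 52 (0.372% of all) had one so removed. The deposited text files list a further input for the thresholded lists but not the rule applied. CG18428, which starts 376 bp from eIF4EHP on the opposite strand, was nearer to the summit, at 144 bp.

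Inside the gene, eIF4EHP had 3 conservative peaks in introns, the strongest with a signal of 172 at 9798 bp from the start site, which passed with 90.5 in replicate 1 and 79.3 in replicate 2. The others, of 78.5 at 9183 bp and 67.1 at 33971 bp, passed in neither replicate's own list. eIF5B had 4 intronic conservative peaks, of 181 at 27743 bp, 148 at 5394 bp, 112 at 21882 bp and 83 at 23195 bp from the nearest of its start sites, and all but the last had a counterpart in each replicate. eIF2Bdelta had an exonic one of 96.1 at 1859 bp and none at its promoter.

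Among members found in ranked lists only, eIF4EHP apart, 17 had a summit in the both-replicate ranked list, with signals from 4.9 to 74.6 and a median of 18.5. The highest were eIF4A, the helicase, at 74.6 (rank 4311), eIF2gamma, the GTP-binding subunit, at 62.7 (rank 6317), eIF2Bepsilon, the catalytic subunit of the exchange factor, at 53.3 (rank 10144), and eEF1alpha2 at 49.7 (rank 12540). Their summits lay at -93, -41, -153 and -279 bp. The strongest eIF4A summit had 38.6 (rank 4817) at -93 bp in replicate 1 ranked. In replicate 2 ranked it had 31.9 (rank 9340) and lay elsewhere, at 63 bp. For eIF2gamma the values were 40.9 (rank 4361) at -41 bp in replicate 1 and 8.69 (rank 80802) at -64 bp in replicate 2. eEF5, which helps ribosomes through proline-rich stretches, had 50.6 in replicate 2 ranked and no summit in the other lists. Of all these ranked-only members, only eIF4EHP reached the IDR threshold in any list.

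The nearest conservative summits outside the 500 bp limit were at eIF2Bbeta, eIF4E3 and eIF2Bgamma. At -690 bp from eIF2Bbeta lay the conservative peak of rank 3, with a signal of 3447, whose summit was 29 bp from the start site of Ugalt, a sugar-nucleotide transporter gene on the opposite strand. Also at -690 bp, eIF4E3 had an upstream peak of 93.8, at rank 2879 of 3718 and below the list median. The next, at -1248 bp from eIF2Bgamma, had 118 and lay 22 bp from Vha36-1. Inside the limit the farthest were eIF3h at 255 bp and eIF1 at -236 bp, so none of the 9 members' strongest summits lay between 255 and 500 bp.

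Conservative summits of members were upstream of the start site in 7 of 9 genes (77.8%), against 90.3% of protein-coding genes with a summit. For eIF5B, eEF1alpha1 and eIF3h the start site in question is an inner one. The members' median position was -41 bp, against -142 bp. eIF3m and eIF3h were the 2 genes with a downstream summit. The strongest peak was also within 500 bp of another gene's start in 5 of 9 members (55.6%), which were eIF1, eIF1A, eIF3h, eIF3m and eIF6, against 64.9% of protein-coding genes with a summit. The member's own start was the nearest in 7 of 9 (77.8%), against 69.3%, with eIF1 and eIF6 the exceptions.

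**Figure D4:**
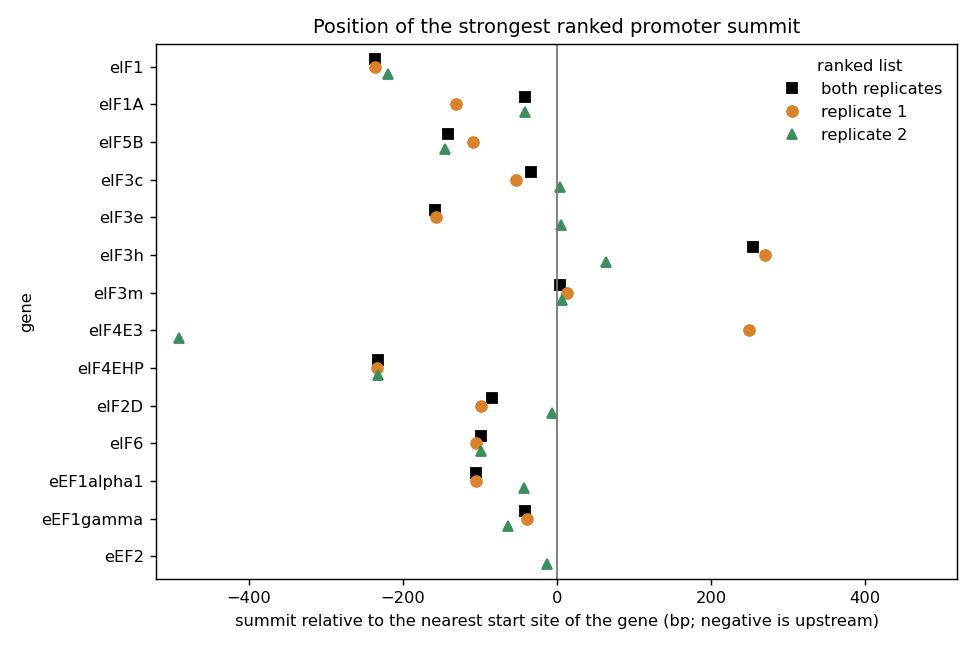
Summit of the strongest promoter peak relative to the nearest start site of the gene (x, bp, negative is upstream) in the both-replicate, replicate 1 and replicate 2 ranked lists, for the 13 members in any thresholded list and eIF4EHP. For eIF6 and eIF4EHP the summits agree within 7 bp, whereas those of eIF3h lie at 270 bp in replicate 1 and 64 bp in replicate 2.

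Members with a head-to-head neighbour, a gene starting within 1000 bp upstream on the opposite strand, had a conservative summit in 6 of 25 cases (24%), against 32.5% of all head-to-head protein-coding genes. The other members had one in 3 of 27 cases (11.1%), against 9.09%. Members with 1 annotated start site had a summit in 2 of 32 cases (6.25%), those with several in 7 of 20 (35%), against 13.4% and 28.1% of protein-coding genes of the same kinds. More start sites give a gene more places where a summit counts, and the part of this in the difference was not tested. None of the 7 members on chromosome X had a summit, against 18.6% of protein-coding genes there, and 4 of the 13 members on chromosome 2R (30.8%) had one, against 15.4%. Both sets of members are too small to be read against those shares.

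The windows under the members' summits had a median A+T content of 58.4% over the 9 genes (lowest 49.5% at eIF3h, highest 76.2% at eIF1), against 67.3% over 1918 conservative promoter peaks (lowest 27.7%, highest 90.1%). The promoters of all 52 members lay the other way, with a median of 63.8%, against 62% of all coding promoters. Like eIF1, the windows of eIF3c, at 73.3%, and eIF3m, at 69.3%, were above the 67.3% of promoter peaks. The eIF4EHP window printed above has 81.2%. Motifs were searched on both strands, and a match describes letters only. Within 101 bp windows the CGATA core was at 3 of 9 members (eEF1gamma, eIF1A and eIF5B), against 20.6% of promoter peaks, and DRE at eEF1gamma alone, against 3.13%. TATAAA was at eIF3m and eIF6, against 22.3%, the GAGA letters (GAGAG) at eIF3c, against 8.19%, and the motif 7 core at eEF1gamma, against 6.41%. The motif 1 core (GGTCACAC), an E-box (CAGCTG) and the Zelda letters (CAGGTA) were at none, against 1.09%, 3.91% and 1.88% of promoter peaks.

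Over whole promoters, from 250 bases before to 50 after the 5' end of the gene, DRE was present at 14 of 52 members (26.9%), against 9.36% of protein-coding genes. This element is known in the fly from promoters of genes used in most cells. A conservative summit was present at 4 of these 14 members (28.6%), eIF1A, eIF3c, eIF6 and eEF1gamma, against 26.5% of all protein-coding genes with DRE. The CGATA core, which every DRE contains, was at 33 members (63.5%), against 47.3%, and the motif 7 core at 12 (23.1%), against 16.1%. The GAGA letters were at 8 members (15.4%), against 29.7%, and the E-box at 4 (7.69%), against 17.6%.

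Promoters of ribosomal protein and many translation genes in the fly start within a pyrimidine stretch, the TCT initiator. Its letters (TCTTT, on the strand of the gene within 10 bases of the start site) were at 8 of 52 members (15.4%), against 57% of cytosolic ribosomal protein genes and 3.39% of all protein-coding genes. The 8 were eIF3d1, eIF3g1, eIF3i, eIF3m, eIF4A, eEF1alpha2, eEF2 and eEF5. Only eIF3m among them had a conservative summit (12.5%), against 25 of the 53 ribosomal protein genes with the letters (47.2%) and 24.1% of all protein-coding genes with them.

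Other genes of translation control were read in the same way, from lists of 18 regulators and partners of initiation, 5 genes of termination, recycling and rescue, and 10 mitochondrial factors. Termination, recycling and rescue had a conservative summit at 4 of 5 genes (80%), against 17.3% of protein-coding genes. This list is too small to be read against that share. Its entries ABCF1 and Ligatin were not matched to a single further gene and were left out. The 4 genes were eRF3 with a signal of 278 and eRF1 with 272, the release factors, pix with 223, the ribosome-splitting ATPase, and HBS1 with 206, a rescue factor. Each shared its peak with a neighbour, eRF3 with SC35, eRF1 with Rbbp5, pix with Srp68 and HBS1 with CG12025. Replicate 1 thresholded lacked the pix peak, and pelo, the partner of HBS1, passed only in replicate 2, at 83.

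Regulators and partners of initiation had a conservative summit at 5 of 18 genes (27.8%). They were S6k, the ribosomal protein S6 kinase, with 2703 at rank 13 on a promoter shared with kri, larp with 208, NAT1, an eIF4G relative, with 190, MCTS1, a partner in re-initiation, with 112, and mxt, an eIF4E-binding protein, with 88.3. The peaks of larp, MCTS1 and mxt were also shared, with asRNA:CR46104, rux and CG11927 in turn, and that of NAT1 was not. All 5 genes but mxt, which lacked a peak in replicate 2 thresholded, also passed in each replicate. The repressors Thor and cup, which bind eIF4E, and the poly(A)-binding protein gene pAbp had none. Mitochondrial factors had 1 of 10 (10%), mEFTu1 with 96.1, which passed in neither replicate's own list. All 3 lists are short and are read beside the 17.3% of protein-coding genes with a conservative summit.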

How the data were processed

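The authors deposited 8 peak lists on dm6 for anti-GFP ChIP-seq of 2 biological replicates (sonicated chromatin, per the labels). No aligner, peak caller or filter rule is stated (not given in the sources used here). Peak signal as deposited is the authors' peak value with no stated scaling. The deposited score, at most 1000, was computed by the authors from the IDR, and the ranked lists also hold the deposited -log10 of the IDR. Signals were ranked within each list. The ranked list whose source peaks match those of the replicates was read as the both-replicate one, since 102395 and 105088 of its 122959 peaks have source peaks in the lists of replicates 1 and 2. Summits were matched to start sites of Ensembl release 115 (BDGP6.54) within 500 bp, on assembled chromosomes. Sequence came from the RefSeq Release 6 genome. Shares carry 95% Wilson intervals, which cover the sampling of genes only. With 1 group, no test between conditions exists and none was run.

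Named genes are members with a thresholded summit, the 5 further members of highest ranked signal, members of each list with a conservative summit, genes sharing such a peak, the 3 members nearest outside 500 bp, and, by family, members with no summit. Thor, cup, pAbp and pelo were named after their values were seen, as were further genes without a thresholded summit. Members and lists were chosen with earlier results of these data known. Of 40 entries in the lists of other translation genes, 33 were used. The matching of summits was tested on simulated data. Scripts used Python 3.11.15, numpy 2.4.6, scipy 1.17.1 and matplotlib 3.10.9.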

Additional observations from a re-analysis of the deposited data

How the results depend on the processing

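The count of 9 members with a conservative promoter summit stayed within 1.5 times under each alternative tried. It was 8 (15.4%) within 250 bp (without eIF3h) against 13.9% of protein-coding genes, and 11 (21.2%) within 1000 bp (with eIF2Bbeta and eIF4E3) against 19.8%. It was 8 (15.4%) in the upper 50% of the list by signal (without eIF1A) against 11.4%, 8 (15.4%) where a peak counted for the nearest gene only (without eIF6) against 12.4%, and 7 (13.5%) with the 5' end of the gene as the sole start site (without eEF1alpha1 and eIF3h) against 15.4%. It was 10 (19.2%) before the authors' further filter (with eIF4EHP) against 17.7%, and 11 (21.2%) where any base of a peak counted (with eIF2Bbeta and eIF4E3) against 18.4%. Leaving out replicate 1 gave 11 (21.2%) against 14.5%, and leaving out replicate 2 gave 11 (21.2%) against 16.1%, each from the thresholded list of the other replicate, which shares all 9 genes. With 100 bases on each side of the summit, DRE was at 3 members (6.78% of promoter peaks), the CGATA core at 6 (37.4%) and the motif 1 core at 1 (3.23%), while the other 5 motifs moved by at most 1 member. No paired analysis was possible because there is only 1 group. Depth is unknown, no untagged library was analysed, and 52 genes give a wide interval, so a share of members somewhat above or below the background would not be detectable here.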
